A study of Mus musculus with 18 samples.

Results

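Solute carriers are membrane proteins that carry small molecules, and 169 of their genes were examined in adult mouse neural stem cells (NSCs) under oxidative stress. They were chosen by symbol from the 13936 genes of the table with the highest RNA input. Of 220 symbols that begin with Slc and a digit, the 40 mitochondrial carriers of the Slc25a family and 11 amino acid transporters of growing cells were left aside. The 169 genes were sorted into 18 classes by substrate. Every one matched a gene of GENCODE M21 (mouse build GRCm38), 168 as protein coding and Slc2a4rg-ps as a pseudogene, and 5 carry an Slc symbol without being transporters, such as the scaffold genes Slc9a3r1 and Slc9a3r2.

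The cells were cultured dentate gyrus NSCs from C57Bl6J mice of 6-9 weeks, at passage 6 to 15, and all groups grew with epidermal growth factor and basic fibroblast growth factor. For 24 h they received hydrogen peroxide (H2O2) at 500 µM or vehicle, which the labels give as water and the study's methods as PBS. Each group held 3 libraries, from cultures F5 and F8 of a line from pooled female mice and culture M9 of a line from pooled male mice, and each treatment was sequenced at RNA inputs of 1 ng, 100 pg and 10 pg. The 18 libraries thus stem from 6 RNA samples, since the 3 inputs of a culture are dilutions, and with a line per sex from pooled animals the p-values measure the spread between cultures and not between animals. Values are normalized counts, that is, read counts per gene scaled by the authors with a size factor per library, and libraries are named in the order F5, F8 and M9 throughout. All tests compare H2O2 with vehicle within an input by limma on log2(normalized count + 1), with 3 libraries against 3 and p-values adjusted over all genes of the table, and a gene was called at an adjusted p under 0.05. Changes of low genes are understated on this scale.

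As background, solute carriers either let a substrate run down its gradient, exchange it for another solute, or couple its uptake to sodium, protons or chloride. Those of the cell surface set how much glucose, amino acid, nucleoside, vitamin or osmolyte a cell takes up, while others sit in the Golgi, endoplasmic reticulum, endosomes and lysosomes and load or empty these compartments. In the dentate gyrus, astrocytes and radial glia-like stem cells are known for the glutamate transporter gene Slc1a3, and dividing cells draw on nucleoside and folate carriers to build DNA.

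Promoters are shown for 5 genes on which the results turn: Slc39a13 and Slc37a2, which rose, Slc29a1 and Slc35b2, which fell and are neighbours on chromosome 17, and Slc5a3, the most abundant osmolyte carrier. Each is the 250 bases before the first start site listed in RefSeq (GRCm38.p6), read 5′ to 3′ along the gene. Slc29a1 had 8 start sites listed, of which only the first is shown, and the other genes had 1 each. Capitals mark the letters of 6 motifs on either strand: the GC box GGGCGG, the CCAAT box, the E-box CACGTG, the core TGGAAA that NFAT-type factors including NFAT5 read, the antioxidant response element core TGACNNNGC and the AP-1 site TGANTCA. The Slc39a13 window is chr2:91070316-91070565, minus strand, and that of Slc37a2 is chr9:37255739-37255988, minus strand. Those of Slc29a1, Slc35b2 and Slc5a3 are chr17:45599619-45599868, minus strand, then chr17:45563686-45563935, plus strand, and chr16:92058072-92058321, plus strand. GENCODE places the gene start of Slc39a13 and of Slc35b2 inside these windows.
Slc39a13: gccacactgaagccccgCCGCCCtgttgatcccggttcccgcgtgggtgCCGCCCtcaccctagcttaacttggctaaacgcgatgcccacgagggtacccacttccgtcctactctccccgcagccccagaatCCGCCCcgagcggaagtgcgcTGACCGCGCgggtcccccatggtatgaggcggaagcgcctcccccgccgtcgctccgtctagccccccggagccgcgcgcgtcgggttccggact
Slc37a2: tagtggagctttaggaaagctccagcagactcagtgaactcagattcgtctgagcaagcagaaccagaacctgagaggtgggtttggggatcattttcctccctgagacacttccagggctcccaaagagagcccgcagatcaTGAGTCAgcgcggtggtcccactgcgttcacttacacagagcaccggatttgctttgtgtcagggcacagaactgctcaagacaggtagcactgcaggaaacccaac
Slc29a1: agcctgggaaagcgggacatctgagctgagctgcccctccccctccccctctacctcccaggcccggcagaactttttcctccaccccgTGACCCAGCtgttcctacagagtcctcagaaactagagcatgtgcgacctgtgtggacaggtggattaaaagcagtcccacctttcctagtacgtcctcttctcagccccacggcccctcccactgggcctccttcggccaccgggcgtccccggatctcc
Slc35b2: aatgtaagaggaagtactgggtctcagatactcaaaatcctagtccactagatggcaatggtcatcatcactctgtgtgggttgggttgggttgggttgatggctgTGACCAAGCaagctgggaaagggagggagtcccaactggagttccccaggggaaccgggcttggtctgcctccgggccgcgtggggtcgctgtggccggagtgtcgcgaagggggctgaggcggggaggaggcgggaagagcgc
Slc5a3: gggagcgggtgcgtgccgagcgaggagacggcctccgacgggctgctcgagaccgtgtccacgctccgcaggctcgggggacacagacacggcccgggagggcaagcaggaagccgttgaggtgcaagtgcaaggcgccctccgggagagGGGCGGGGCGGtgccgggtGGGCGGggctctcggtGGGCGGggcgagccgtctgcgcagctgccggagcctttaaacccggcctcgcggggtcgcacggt
The Slc39a13 window held 3 GC boxes and 1 antioxidant response element core, and those of Slc29a1 and Slc35b2 held 1 such core each. Of the 14 genes called at 1 ng that had a window, only these 3 held that core. Slc37a2 held 1 AP-1 site and Slc5a3 4 GC boxes. RefSeq windows were found for 128 of the 169 genes, and 61.7% of these held a GC box against 32.9% of 27025 promoters of all genes, with a median GC content of 61.8% against 52.0%. The antioxidant response element core was in 15.6% of them and in 10.2% of all promoters, the AP-1 site in 7.81% and 6.87%, the CCAAT box in 32.03% and 34.46%, the E-box in 10.9% and 6.05%, and the core TGGAAA in 14.1% and 18.7%. These are matches of letters and were not tested as sites. The 169 genes were drawn from genes kept in the table, whereas the 27025 promoters were not limited to such genes. Whether the differences belong to solute carriers or to genes kept in the table at large was not tested.

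At 1 ng the unfiltered libraries held 10032628 to 11946931 counted reads, and the 169 genes took 1.24 to 1.60% of the reads in the filtered table, with H2O2 culture F5 highest. Progenitor transcripts were high in every library (Nes 19986, 19681 and 15124 normalized counts after vehicle and 16846, 18409 and 15567 after H2O2), as was Olig1, a gene of the oligodendrocyte lineage (28402, 27788 and 28873 normalized counts after vehicle and 24432, 27071 and 26509 after H2O2). Defining markers of mature oligodendrocytes (Mbp, Mog, Mag), microglia (Aif1, Cx3cr1, Tmem119, C1qa) and endothelium (Pecam1, Cdh5, Cldn5) stayed below 10 in all 6 libraries. Among list genes, 1 of 14 tested in the stem cell list passed the test upward (Vim, log2 fold change 0.63). The neuron list had 1 of 5 (Prox1, 0.86) and the astrocyte list 1 of 5 (Agt, 1.29). None of these 3 lists had a downward call, and their median log2 fold changes were 0.017, 0.22 and -0.0094. Over all tested genes 5.57% were called higher and 7.11% lower. The 10 mitosis genes moved with the treatment. Their summed level was 20450.0 to 25490.0 after vehicle and 1432 to 9887 after H2O2, lowest in culture F5, 5 of the 10 passed the test, all downward (Mki67 2362, 2718 and 2749 normalized counts after vehicle and 133, 748 and 1019.9 after H2O2), and their median log2 fold change was -2.34. Neuron markers summed to 432 to 585 after vehicle and 682 to 993 after H2O2, with Stmn2 below 10 everywhere, and astrocyte markers to 4971 to 6216 and 5487 to 6765. The part of these shifts in the solute carrier results was not tested, and in bulk RNA fewer cells of a type cannot be told apart from less RNA per cell.

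At 1 ng, 12 of the 169 genes were higher after H2O2 (7.10%, against a background of 5.57% of 13692 tested genes) and 3 were lower (1.78%, against 7.11%). The median log2 fold change of the 169 was 0.16, beside 0.02 for all tested genes. By culture this median was 0.20 (F5), 0.11 (F8) and 0.17 (M9). Of the 169, 108 had a value above 0 (63.9%, background 51.5%). In 38 genes all H2O2 libraries lay above all vehicle libraries (22.5%, background 18.1%), and in 15 all lay below (8.88%, background 19.7%). With the culture as a block, 18 genes were called higher (background 8.44%) and 10 lower (background 9.87%). DESeq2 on the recovered reads called 25 higher (background 9.67%) and 8 lower (background 10.7%), and these included the 15 genes called by limma. The upward calls were spread over 6 classes. For all class counts below, the shares of all tested genes are 5.57% called higher, 7.11% called lower and 51.5% above 0. With any single vehicle library left out, limma called none of the 169 genes and none of all tested genes. The smallest adjusted p over all genes was then 0.0501 (without F5), 0.0624 (F8) and 0.0552 (M9). Without both libraries of F5, limma called 6 of the 169 higher and 2 lower, beside 267 and 563 of 13618 tested genes. Leaving out H2O2 culture F8 left 3 calls higher and 1 lower, beside 246 and 392 of 13674 tested genes.

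**Figure D1:**
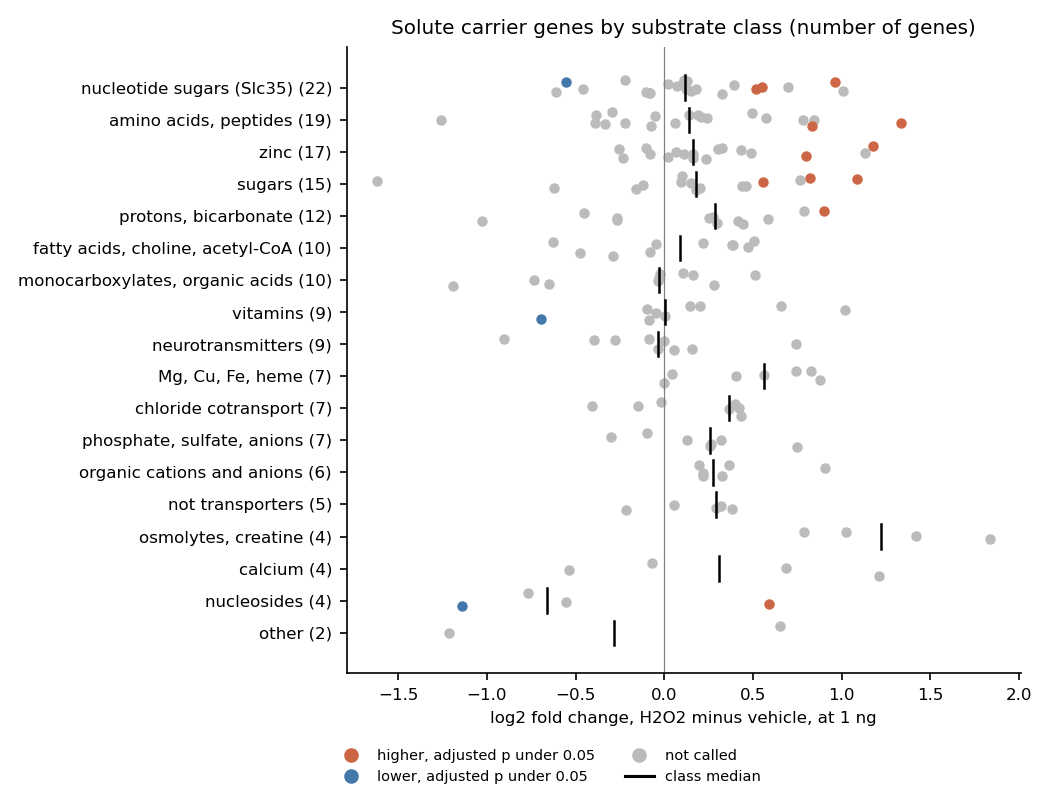
Log2 fold change of each of the 169 genes at 1 ng (x axis, H2O2 minus vehicle) by substrate class (y axis, number of genes in brackets), with 12 genes called higher, 3 called lower and a bar at each class median. The 4 osmolyte and creatine carriers all lie above 0.7 without a call, and 3 of the 4 nucleoside carriers lie below 0.

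The largest fall among the calls was that of Slc29a1, which encodes the equilibrative nucleoside transporter ENT1 of the cell surface, through which cells salvage nucleosides (chr17:45585200-45599606, minus strand). Slc29a1 stood at 905, 1067 and 1410.1 normalized counts after vehicle and 425, 480.0 and 624 after H2O2. Every H2O2 library lay below every vehicle library (log2 fold change -1.14, SE 0.20, adjusted p = 0.0226), and the changes of F5 (-1.09), F8 (-1.15) and M9 (-1.18) were alike. Its relative Slc29a2, which encodes ENT2, was at 143, 165 and 166 normalized counts after vehicle and 86.5, 73.2 and 123.3 after H2O2. The groups did not overlap but the gene missed the threshold (log2 fold change -0.77, SE 0.23, adjusted p = 0.0666). Slc29a4 encodes a carrier of monoamines and adenosine and was at 453, 341 and 598 normalized counts after vehicle and 281, 258 and 400.4 after H2O2, lower within each culture with overlapping groups (log2 fold change -0.55, adjusted p = 0.162, and 0.0324 with the culture as a block). The fourth member went the other way. Slc29a3 encodes ENT3, which works in lysosomes, and was at 357, 383 and 399 normalized counts after vehicle and 476, 634 and 621 after H2O2, so that all H2O2 libraries were above all vehicle libraries (log2 fold change 0.59, SE 0.14, adjusted p = 0.0380).

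Slc19a1, which encodes the reduced folate carrier (chr10:77032241-77061002, plus strand), fell too. Its libraries were at 337, 309.8 and 299 normalized counts after vehicle and 155, 228 and 207 after H2O2. The groups did not overlap, with H2O2 F5 lowest (log2 fold change -0.70, SE 0.18, adjusted p = 0.0435). Slc19a1 was the only call among 9 vitamin carriers, whose median log2 fold change was 0.0032. The thiamine carrier gene Slc19a2 was at 1145, 1069 and 815 normalized counts after vehicle and 1091, 1142 and 1080.0 after H2O2, with overlapping groups (adjusted p = 0.508).

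**Figure D2:**
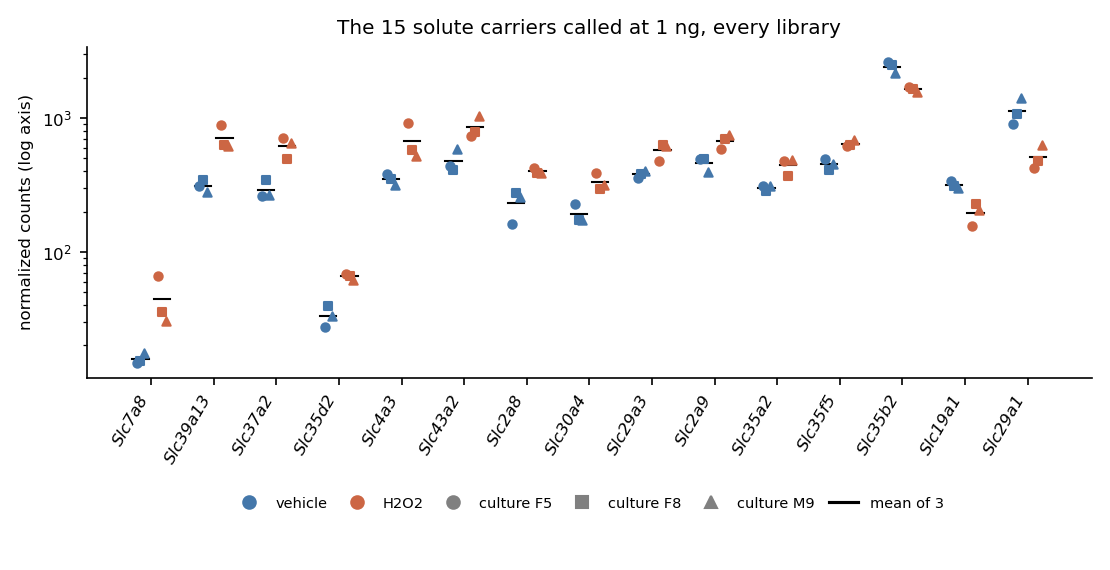
Normalized counts (log axis) at 1 ng of the 15 called genes in each library, vehicle in blue and H2O2 in orange, with a marker shape per culture and a bar at the mean of 3. The groups do not overlap in any of the 15 genes, from Slc7a8 with 15.9 counts on average after vehicle to Slc35b2 with 2419.

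Of 22 genes for nucleotide sugar carriers and their Slc35 relatives, 3 rose (13.6%, background 5.57%) and 1 fell (4.55%, background 7.11%). The class median was 0.12. The fall was in Slc35b2, which brings the sulfate donor PAPS into the Golgi and was the most abundant of the 15 called genes (chr17:45563874-45567671, plus strand). Slc35b2 was at 2620.1, 2478 and 2157 normalized counts after vehicle and 1714, 1648 and 1560.4 after H2O2. The groups were apart and the libraries within them close (log2 fold change -0.56, SE 0.10, adjusted p = 0.0237). Slc35b2 and Slc29a1 are separated by 17528 bases that hold Hsp90ab1, a chaperone gene, which was at 19047 to 19767 after vehicle and 15902 to 18584 after H2O2 and was not called (log2 fold change -0.17, adjusted p = 0.272).

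Slc35a2, the Golgi UDP-galactose carrier, was at 309.9, 284 and 310.1 normalized counts after vehicle and 478, 370.2 and 489 after H2O2. All 3 H2O2 libraries were higher (log2 fold change 0.55, SE 0.14, adjusted p = 0.0463), and without the filter on the table the call was lost (adjusted p = 0.0517). The low Slc35d2, a nucleotide sugar carrier gene, was at 27.7, 39.4 and 33.3 normalized counts after vehicle and 68.4, 66.1 and 62.2 after H2O2. Its groups were apart (log2 fold change 0.96, SE 0.25, adjusted p = 0.0463), but the call was lost with the culture as a block (adjusted p = 0.0519) and without the filter on the table (0.0656). Slc35f5 stood at 493, 409.9 and 451 normalized counts after vehicle and 616, 632 and 685 after H2O2, without overlap (log2 fold change 0.51, SE 0.11, adjusted p = 0.0327). The class also held Slc35a4, among the most abundant members per length, at 2839.6, 2731 and 2822 normalized counts after vehicle and 2274, 2505 and 2428 after H2O2, lower in every culture without a call (adjusted p = 0.0997).

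Zinc carriers formed a class of 17, in which 2 rose (11.8%, background 5.57%) and none fell (background 7.11%). A log2 fold change above 0 was found in 13 (76.5%, background 51.5%). Slc39a13 encodes ZIP13, which releases zinc from intracellular vesicles (chr2:91061791-91070417, minus strand), and had the smallest adjusted p of all 169 genes. It was at 311, 342 and 279 normalized counts after vehicle and 882, 629 and 622 after H2O2. All H2O2 libraries were far above vehicle, F5 highest (log2 fold change 1.18, SE 0.17, adjusted p = 0.0192). Part of its exons overlaps Psmc3, a proteasome gene, whose reads cannot be told from it by strand, and Psmc3 was at 3159, 3374 and 3131 after vehicle and 3698, 3227 and 3123 after H2O2 (log2 fold change 0.05, adjusted p = 0.731). Slc30a4, which encodes ZnT4 and loads zinc into endosomes and lysosomes, was at 228, 173 and 173 normalized counts after vehicle and 386, 297 and 316 after H2O2. Its groups were apart (log2 fold change 0.80, SE 0.18, adjusted p = 0.0324). The cell surface exporter gene Slc30a1 was low at 11.7, 6.73 and 13.1 normalized counts after vehicle and 11.1, 15.3 and 10.5 after H2O2, with overlap. The abundant Slc39a7, for zinc release from the endoplasmic reticulum, was at 4184, 4615 and 4238 normalized counts after vehicle and 4532, 5315 and 4774 after H2O2, higher within each culture but with overlapping groups (adjusted p = 0.267).

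No gene of the 7 other metal and heme carriers was called, although 6 had a log2 fold change above 0 and the class median was 0.56. Slc41a1, a magnesium carrier gene, was at 802, 968 and 762 normalized counts after vehicle and 1435, 1301 and 1018 after H2O2. The groups were apart and the adjusted p lay just above the threshold (log2 fold change 0.56, SE 0.15, adjusted p = 0.05003, and 0.0268 with the culture as a block). Slc41a2 of the same family was at 599.7, 577 and 299 normalized counts after vehicle and 1185, 852 and 636 after H2O2, again without overlap (adjusted p = 0.0982, and 0.0153 with the block). The iron carrier gene Slc11a2 showed no such shift, with a log2 fold change of -0.00085 and overlapping groups.

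Among 15 sugar carriers 3 rose (20.0%, background 5.57%) and none fell (background 7.11%). Slc37a2, an antiporter of glucose 6-phosphate and phosphate in the endoplasmic reticulum (chr9:37227585-37255738, minus strand), was at 259.9, 347 and 265 normalized counts after vehicle and 713, 496 and 649 after H2O2. No H2O2 library came near the vehicle range (log2 fold change 1.09, SE 0.18, adjusted p = 0.0220). Slc2a8 encodes GLUT8, an intracellular hexose carrier, and was at 163, 274 and 256 normalized counts after vehicle and 425, 389 and 387 after H2O2. The groups were apart, with vehicle F5 the lowest library (log2 fold change 0.82, SE 0.21, adjusted p = 0.0422). Slc2a9 encodes GLUT9, a urate carrier, and was at 492, 495 and 395 normalized counts after vehicle and 582, 701 and 748 after H2O2, also without overlap (log2 fold change 0.55, SE 0.14, adjusted p = 0.0451, while the block put it just over the threshold, at 0.0504).

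The glucose carriers of the cell surface were not called. Slc2a1, which encodes GLUT1, was at 655, 644 and 828 normalized counts after vehicle and 1172, 576 and 747 after H2O2. Only H2O2 F5 stood above the vehicle range (log2 fold change 0.18, SE 0.24, adjusted p = 0.662). Slc2a3, for GLUT3, was at 148, 94.3 and 234.7 normalized counts after vehicle and 371, 144 and 302 after H2O2, higher within each culture while the groups overlapped (log2 fold change 0.76, adjusted p = 0.258, and 0.0596 with the block). Among 10 monocarboxylate and organic acid carriers, Slc16a1, which encodes the lactate carrier MCT1, was at 682, 675 and 883 normalized counts after vehicle and 544, 365 and 528 after H2O2. All H2O2 libraries were lower (log2 fold change -0.65, SE 0.18, adjusted p = 0.0555, and 0.0274 with the block). Slc16a6 was at 103, 166 and 197 normalized counts after vehicle and 46.3, 61.0 and 98.0 after H2O2, without overlap, though its exons overlap those of Amz2 and Arsg, which were not called (log2 fold change -1.19, adjusted p = 0.0599, and 0.0187 with the block).

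Amino acid and peptide carriers numbered 19 after the 11 of growing cells were set aside, and 2 rose (10.5%, background 5.57%). Slc43a2 encodes LAT4, a carrier of neutral amino acids, and was at 442, 412 and 587 normalized counts after vehicle and 738, 791 and 1033 after H2O2. The groups were apart and every culture moved by a similar step (log2 fold change 0.83, SE 0.18, adjusted p = 0.0310). Slc7a8, whose product LAT2 pairs with the heavy chain of Slc3a2, had the largest rise among the calls but very low values, at 14.9, 15.4 and 17.5 normalized counts after vehicle and 66.4, 35.6 and 30.6 after H2O2. The groups were apart (log2 fold change 1.34, SE 0.36, adjusted p = 0.0491), and the call was lost with the block (adjusted p = 0.0504), with a pseudocount of 0.5 and without the table's filter. Slc38a7, a lysosomal glutamine carrier gene, was at 428, 343 and 348 normalized counts after vehicle and 669, 496 and 510.0 after H2O2, without overlap (adjusted p = 0.0517, and 0.0223 with the block). Slc43a1, which encodes the related LAT3, was at 105, 87.6 and 117 normalized counts after vehicle and 23.1, 55.9 and 57.9 after H2O2. It had all H2O2 libraries below vehicle, opposite to Slc43a2 (log2 fold change -1.26, SE 0.37, adjusted p = 0.0627, and 0.0493 with the block).

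Of 12 proton, bicarbonate and anion exchangers, Slc4a3 rose. It encodes AE3, which exchanges chloride for bicarbonate (chr1:75546266-75562172, plus strand), and was at 380.2, 350.2 and 314 normalized counts after vehicle and 910.4, 574 and 524 after H2O2. All H2O2 libraries were higher, F5 most (log2 fold change 0.90, SE 0.21, adjusted p = 0.0363). Slc9a7, for a sodium-proton exchanger of the Golgi, was at 529, 489.7 and 469 normalized counts after vehicle and 781, 625 and 624 after H2O2, without overlap (adjusted p = 0.0556, and 0.0375 with the block). No chloride cotransporter was called. Slc12a9 was at 647, 686 and 604 normalized counts after vehicle and 803, 787 and 902 after H2O2, without overlap (log2 fold change 0.36, SE 0.10, adjusted p = 0.0569). Slc12a2, which encodes NKCC1, a sodium-driven chloride importer, was at 199, 145 and 207 normalized counts after vehicle and 91.5, 195 and 143 after H2O2, in no common direction across cultures (adjusted p = 0.390).

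The widest class shift was in the 4 carriers of osmolytes and creatine, whose log2 fold changes ran from 0.79 to 1.84 with a median of 1.22, although none was called. Slc5a3 encodes SMIT1, which takes up myo-inositol with sodium (chr16:92058322-92087473, plus strand). It was at 3504, 4331 and 2273 normalized counts after vehicle and 16269, 6911 and 5868 after H2O2. It was higher in each culture and the groups did not overlap, but H2O2 F5 was far above the other libraries (log2 fold change 1.42, SE 0.39, adjusted p = 0.0509, and 0.0212 with the culture as a block). Without H2O2 F5 the log2 fold change of Slc5a3 at 1 ng was 0.97 (adjusted p = 0.0421). Exons of Slc5a3 overlap those of Mrps6, a mitochondrial ribosomal protein gene, which was at 2693, 3532 and 2019.7 after vehicle and 8984, 4586 and 4571 after H2O2 (log2 fold change 1.10, adjusted p = 0.0488). Reads of these overlapping genes cannot be told apart in full.

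Slc6a6, which encodes the taurine carrier, was at 339, 185 and 80.6 normalized counts after vehicle and 1401, 618 and 269.7 after H2O2. In each culture the H2O2 library was several times the vehicle library, yet the groups overlapped, as vehicle F5 exceeded H2O2 M9 (log2 fold change 1.84, SE 0.66, adjusted p = 0.102, and 0.01004 with the block). Slc6a8, for the creatine carrier, was at 43.7, 30.8 and 61.3 normalized counts after vehicle and 112, 64.1 and 61.1 after H2O2. F5 and F8 were higher after H2O2 and M9 was level (adjusted p = 0.173). The proton-coupled inositol carrier gene Slc2a13 was low at 40.5, 19.2 and 17.5 normalized counts after vehicle and 102, 45.8 and 26.3 after H2O2, higher in each culture with overlap (adjusted p = 0.233). Partner genes gave other values. Nfat5, which encodes the factor of the osmotic response, was at 144, 201.1 and 165 normalized counts after vehicle and 356, 215 and 183 after H2O2, high in H2O2 F5 alone (adjusted p = 0.228). Akr1b3, for the sorbitol-making aldose reductase, was at 1002, 954 and 1094 normalized counts after vehicle and 548, 780.0 and 788 after H2O2, all lower (adjusted p = 0.0554, and 0.0383 with the block, a call).

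Per kilobase of exon, high levels after vehicle at 1 ng belonged to Slc1a3 (3426 normalized counts per kb), Slc39a7 (1682), Slc22a17 (942) and Slc35a4 (854). None of these 4 was called. Slc1a3, for the glutamate transporter GLAST, was at 25347, 30593 and 31795 normalized counts after vehicle and 40597, 20706 and 29096 after H2O2. H2O2 F5 was the highest and H2O2 F8 the lowest library, and the log2 fold change was -0.0039 (SE 0.23), with a sign that turned under other settings. The second glutamate transporter gene Slc1a2 was far lower in level, at 15.4 normalized counts per kb, and overlapped as well (log2 fold change -0.08). Slc6a11, a carrier gene for the transmitter GABA, was at 1129, 732 and 2517 normalized counts after vehicle and 366, 557 and 1551 after H2O2, lower in each culture with a wide spread between cultures (adjusted p = 0.332, and 0.0408 with the block).

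Several of the widest values at 1 ng belonged to low genes that missed the threshold. Slc2a4, for the insulin-responsive glucose carrier GLUT4, had the lowest log2 fold change of all, from 17.04, 8.66 and 2.63 normalized counts after vehicle and 6.04, 0 and 2.11 after H2O2. Its groups overlapped (log2 fold change -1.62, SE 0.83, adjusted p = 0.228). Slc14a2, a urea carrier gene, was lower in each culture with overlap (log2 fold change -1.22, adjusted p = 0.165). On the other side stood the zinc carrier gene Slc39a4, at 9.59, 2.89 and 6.13 normalized counts after vehicle and 29.2, 11.2 and 7.38 after H2O2, and Slc35f3, at 93.7, 89.5 and 35.9 normalized counts after vehicle and 112, 143 and 157 after H2O2. The first overlapped and the second did not (adjusted p = 0.232 and 0.114). These 4 were named for their size after their values were seen. Outside the filtered table the rule matched 151 further symbols, of which 9 were at 0 in all 6 libraries and 121 stayed below 10. Of 142 of these that were tested in the unfiltered table, 2 were called higher (1.41%, background 2.15%) and none lower (background 3.0%).

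In the remaining classes no gene passed the test at 1 ng. Slc8b1, which encodes the sodium-calcium exchanger NCLX of mitochondria, had the largest value of the calcium class, at 47.9, 52.9 and 74.4 normalized counts after vehicle and 212, 127 and 89.6 after H2O2. All H2O2 libraries were higher (log2 fold change 1.21, SE 0.35, adjusted p = 0.0562). Slc27a1, a fatty acid carrier gene among the 8 highest levels per kb, was at 3882, 4794 and 4012 normalized counts after vehicle and 5882, 5559 and 5027 after H2O2. It was higher in each culture (log2 fold change 0.38, adjusted p = 0.0579, and 0.0465 with the block). Slc22a15, in the class of organic cation and anion carriers whose 6 members all had values above 0, was at 63.9, 63.5 and 42.9 normalized counts after vehicle and 188, 80.3 and 78.0 after H2O2, led by H2O2 F5 (adjusted p = 0.145). Slc18a2 (adjusted p = 0.298), Slc26a8 (0.396) and the scaffold gene Slc9a3r2 (0.208) had the smallest p of the neurotransmitter, the phosphate and sulfate, and the non-transporter class, and Slc9a3r1 was at 1066, 1191 and 1097 normalized counts after vehicle and 1807, 1346 and 1109.5 after H2O2 (adjusted p = 0.241).

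Sorted by where their products are known to act, a grouping drawn up after the values were seen, 17 genes belong to lysosomes or endosomes. Of these 3 rose (Slc29a3, Slc2a8 and Slc30a4), none fell, 14 had a log2 fold change above 0 (82.4%), and the median was 0.28. Of 23 genes of the Golgi or endoplasmic reticulum 4 rose and 1 fell, 15 were above 0 (65.2%), and the median was 0.11. Slc39a13, described above as acting at intracellular vesicles, was counted with the Golgi or endoplasmic reticulum. Over all tested genes 5.57% were called higher, 7.11% lower and 51.5% were above 0, and these shares also stand beside the counts of the lists that follow. Other transport genes gave counts of their own. In a list of 24 transporter partners and regulators, of which 23 were tested, 2 rose: Sgk1, a kinase that raises the activity of many carriers, at 637, 632 and 459.8 normalized counts after vehicle and 1709, 1063 and 1236 after H2O2 (log2 fold change 1.199, SE 0.20, adjusted p = 0.0220), and Ostm1, the partner of a lysosomal chloride-proton exchanger, at 903, 862 and 905 normalized counts after vehicle and 1394, 1279 and 1282 after H2O2 (log2 fold change 0.57, SE 0.09, adjusted p = 0.0202). Both had groups that did not overlap. Of 9 tested sodium-potassium ATPase genes Fxyd6, for a small regulatory subunit, fell (log2 fold change -1.15, adjusted p = 0.0213). Atp1b1, for a subunit of the pump itself, was at 1079, 956 and 727 normalized counts after vehicle and 3220.1, 1291 and 1771 after H2O2. All its H2O2 libraries were higher (log2 fold change 1.10, SE 0.31, adjusted p = 0.0555), and it was called higher with the block (adjusted p = 0.0223), by DESeq2 (0.00196) and by edgeR (0.0469). Of 23 tested ABC transporters, Abca1, Abca3, Abca7 and Abcc5 rose and Abcb6 fell, with log2 fold changes of 1.77, 0.58, 1.00, 0.68 and -0.42.

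At 100 pg, 142 of the 169 genes were in the filtered table and none was called by limma in either direction (background 0.666% higher and 0.846% lower of 12171 genes), nor by edgeR (background 0.649% and 0.739%). By limma at an unadjusted p under 0.05, 17 were higher and 13 lower, 12.0% and 9.15% beside 10.07% and 10.95% of all tested genes. By edgeR 19 were higher and 13 lower, 13.4% and 9.15% beside 10.28% and 10.15% of all tested genes. The groups did not overlap in 18 genes with H2O2 higher (12.7%, background 12.6%) and 14 with H2O2 lower (9.86%, background 14.1%). The block fit called Slc5a3 and Slc6a6 higher (background 1.77%) and Slc29a1 and Slc35b2 lower (background 2.29%). DESeq2 called 9 higher (background 4.31%) and 4 lower (background 5.01%), among them the same 4. The median log2 fold change was 0.12, beside 0.01 for all tested genes, and that of the 4 osmolyte and creatine carriers 1.35, with all 4 above 0.

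Slc5a3 at 100 pg was at 3032, 3306 and 1919 normalized counts after vehicle and 13011, 5874 and 5136 after H2O2. The order of the libraries was that of 1 ng, with H2O2 F5 highest (log2 fold change 1.45, SE 0.34, adjusted p = 0.0670, and 0.0272 with the block). Slc6a6 was at 257, 104 and 56.2 normalized counts after vehicle and 1270.2, 658 and 238 after H2O2, higher in each culture with overlapping groups (log2 fold change 2.34, adjusted p = 0.104, and 0.0227 with the block). Slc29a1 was at 915, 987 and 1559 normalized counts after vehicle and 395, 594 and 722 after H2O2. All H2O2 libraries were lower (log2 fold change -1.02, adjusted p = 0.0898, and 0.0332 with the block). Slc35b2 was at 2731, 2767 and 2673 normalized counts after vehicle and 2004, 1760.4 and 1774 after H2O2, again all lower (log2 fold change -0.56, adjusted p = 0.0521, and 0.0495 with the block).

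**Figure D3:**
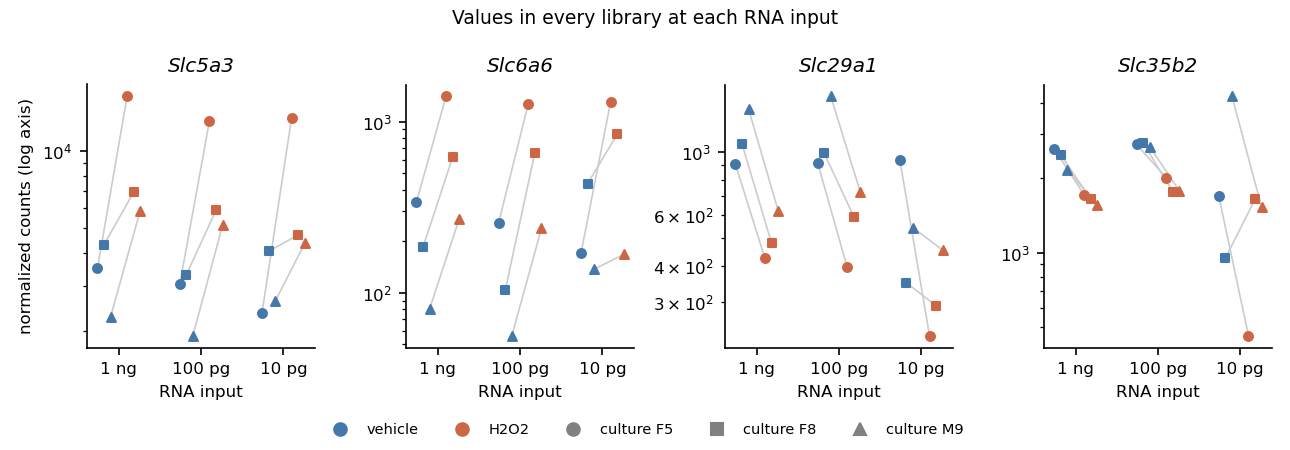
Normalized counts (log axis) of Slc5a3, Slc6a6, Slc29a1 and Slc35b2 in each library at RNA inputs of 1 ng, 100 pg and 10 pg, vehicle in blue and H2O2 in orange, with grey lines joining the libraries of a culture. At 1 ng and 100 pg every line of a gene runs the same way, and at 10 pg Slc35b2 goes the other way in F8, from 949 to 1642. Tables were normalized separately, so levels are compared within an input.

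None of the other genes called at 1 ng was called at 100 pg by limma. Slc39a13 was at 335, 458 and 307 normalized counts after vehicle and 1123, 467 and 614 after H2O2, apart by a small margin (log2 fold change 0.92, adjusted p = 0.158). Slc2a9 was at 467, 243 and 297 normalized counts after vehicle and 594, 658 and 752 after H2O2, with no overlap (log2 fold change 1.04, adjusted p = 0.0811). Slc37a2 overlapped, since H2O2 F8 at 348 lay below vehicle F8 at 434 (log2 fold change 0.86). The log2 fold changes of Slc19a1 (-1.03), Slc29a3 (0.84), Slc2a8 (0.54), Slc35d2 (0.65), Slc43a2 (0.77) and Slc4a3 (0.40) came with overlapping groups too. Those of Slc30a4 (0.80), Slc35a2 (0.56) and Slc35f5 (0.66) came without overlap. Slc7a8, the largest called rise at 1 ng, had been dropped by the filter, and in the unfiltered table it was at 0.926, 18.8 and 38.4 normalized counts after vehicle and 0, 17.6 and 37.0 after H2O2. F8 and M9 were level there and F5 held at most 1 read (log2 fold change -0.36, SE 1.62).

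At 10 pg, 71 genes remained in the table, and neither limma nor edgeR nor DESeq2 called any of them (background 0.0% higher and 0.0% lower by limma of 6356 genes, 0.0% and 0.0% by edgeR, and 0.645% and 0.865% by DESeq2). At an unadjusted p under 0.05, 8 were higher and 2 lower by limma, 6 and 1 by DESeq2, and 5 and 2 by edgeR. For limma these are 11.3% and 2.82%, beside 4.78% and 5.38% of all tested genes, for DESeq2 8.45% and 1.41% beside 5.49% and 5.92%, and for edgeR 7.04% and 2.82% beside 4.48% and 5.10%. The groups did not overlap in 11 genes with H2O2 higher (15.5%, background 7.91%) and 4 with H2O2 lower (5.63%, background 8.43%). The widest of these, picked after their values were seen, were Slc9a3r2 (2.23 on the log2 scale) and Slc37a4, for the glucose 6-phosphate carrier of the endoplasmic reticulum, at 521, 702 and 578 normalized counts after vehicle and 345, 0 and 416 after H2O2 (-3.51, adjusted p = 0.605). The value of Slc37a4 rests on H2O2 F8, listed at 0. The median log2 fold change of the 71 was 0.28, beside 0.02 for all tested genes, and it was 0.05 without H2O2 F5 and -0.05 without both F5 libraries. Slc5a3 was at 2352, 4071 and 2607 normalized counts after vehicle and 13434, 4722 and 4385 after H2O2. All H2O2 libraries were above vehicle, although F8 and M9 lay just above vehicle F8 (log2 fold change 1.16, adjusted p = 0.410). Slc39a13 was at 184, 556 and 275 normalized counts after vehicle and 602, 763 and 720.2 after H2O2, also without overlap (log2 fold change 1.18, adjusted p = 0.515). Slc29a1 was at 934, 349 and 543 normalized counts after vehicle and 228, 290.2 and 454 after H2O2, where vehicle F8 fell within the H2O2 range.

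The spread between libraries of a group grew as input fell, although the inputs are dilutions of the same RNA. The median coefficient of variation of the 169 genes was 15.3% among vehicle and 19.1% among H2O2 libraries at 1 ng, 22.2% and 25.7% at 100 pg, and 49.8% and 40.1% at 10 pg, where only the genes kept in the table enter. For all genes of the 10 pg table it was 35.8% and 37.9%. The genes lost were mostly the low ones: the 142 kept at 100 pg had a median vehicle level of 347 normalized counts at 1 ng and the 27 others 25.4, and for 10 pg the values were 646 for the 71 kept and 103 for the 98 others. The most abundant gene lost at 10 pg was Slc6a11, with a vehicle mean of 1459 at 1 ng. Of the 15 genes called at 1 ng, 14 were in the 100 pg table and 6 in the 10 pg table.

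**Figure D4:**
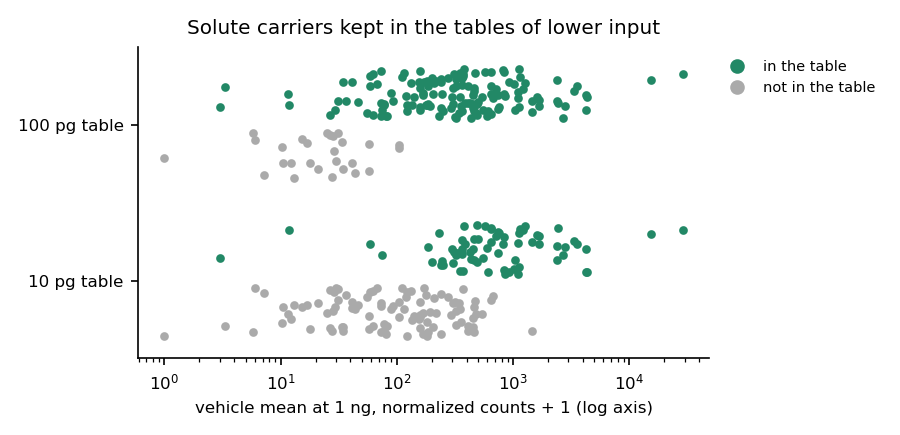
Vehicle mean of the 169 genes at 1 ng (x axis, normalized counts + 1, log axis) for genes kept (green) and not kept (grey) in the filtered tables of 100 pg and 10 pg (y axis, with vertical scatter added for legibility). At 100 pg no gene above 104 was lost, while at 10 pg genes up to 1459 were.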

How the data were processed

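The authors preamplified polyA RNA (SMART-Seq HT), made Nextera XT libraries, aligned paired reads with HISAT2 2.0.6 to GRCm38, counted genes without strand (featureCounts) and kept genes in the CLEAR filter, which drops transcripts with uneven coverage. CASAVA 1.8.2 and GRCh38, a human build, also stand in the submitters' processing notes. The values the authors deposited are a signal of read counts divided by a size factor per library and table. Whole reads were recovered for 100.0% of values (tolerance 1e-08), with 9362461 to 12371926 reads per library in the filtered tables. Reads were not molecules counted by identifiers.

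log2(value + 1) was tested per input with limma 3.58.1 (R 4.3.3, trended eBayes), with p-values adjusted by Benjamini and Hochberg across the whole table (threshold 0.05). Alternatives were DESeq2 1.42.0 and edgeR 4.0.16 on recovered reads, TMM scaling, pseudocounts of 0.5 and 5, a mean of at least 10, the unfiltered table, the culture as a block and each library left out. The culture names in the headers pair the libraries. Deviations of paired libraries correlated with r of 0.16 (F5), 0.15 (F8) and 0.45 (M9) at 1 ng, 0.08, 0.03 and 0.21 at 100 pg, and -0.03, 0.02 and 0.04 at 10 pg. On simulated 1 ng data limma recovered most of the 200 changed genes it was given. The simulation had a fixed spread, no differences between cultures, and changes larger than most of those called here. It therefore does not show how many changes of the size called here would be found. Members, lists and the rule for named genes were chosen with earlier results of these data known. The rule names genes called at 1 ng, the smallest p of each class without a call, the 5 highest levels per kb of exon (4 are reported), and genes set by name, of which Slc16a3 and Slc40a1 were not in the filtered table. Results for some genes are not reported here. Other genes named, such as those called only with the block, were chosen after their values were seen.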

Additional observations from a re-analysis of the deposited data

Results flagged for a closer look

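Slc6a8, the creatine carrier gene, differed between cultures at 1 ng. Its log2 change was 1.33 in F5 and 1.03 in F8 but -0.0046 in M9, the culture from male mice, and this difference was not tested.

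Outside the filtered table at 1 ng, 2 of 142 tested solute carrier genes (1.41%) were called higher by limma in the unfiltered table, beside 2.15% of all 35890 genes tested there. Slc16a11 was at 0 in all vehicle libraries and at 2.99, 5.11 and 4.21 normalized counts in the H2O2 libraries (fitted log2 fold change 2.33, adjusted p = 0.0424). Slc6a19, a carrier of neutral amino acids, was at 0 after vehicle and at 4.99, 3.07 and 5.26 after H2O2 (fitted log2 fold change 2.42, adjusted p = 0.0385). Both fitted changes are set against libraries at 0, depend on the pseudocount and are no bound on the fold.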

How the results depend on the processing

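At 1 ng, where limma called 12 higher and 3 lower, DESeq2 called 25 and 8 and the replicate block 18 and 10, and without the filter on the table the counts were 12 and 6. The shares of all tested genes were 9.67% and 10.7% by DESeq2, 8.44% and 9.87% with the block, and 2.15% and 3.0% without the filter. Leaving out each library in turn gave 0 to 10 higher and 0 to 4 lower, with 0 of both for each vehicle library. Over all tested genes these fits gave 0 to 700 higher and 0 to 986 lower. Without both libraries of a culture, an alternative added after seeing the data, the counts were 6 and 2 (F5), 0 and 0 (F8) and 0 and 0 (M9). At 100 pg, against 0 and 0, DESeq2 called 9 and 4 and the replicate block 2 and 2, and leaving out a library gave 0 to 2 higher and 0 to 1 lower. Over all genes tested at 100 pg, leaving out a library gave 0 to 87 higher and 0 to 205 lower. At 10 pg every alternative gave 0.

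Of the values for named genes, 726 kept their direction and side of the threshold under an alternative, 75 lost the call, 40 gained it and 12 changed sign. Only genes called by limma at 1 ng could lose a call, so many of the 726 had none to lose. With each library left out in turn, no called gene passed in more than 3 of the fits. Slc35b2, Slc37a2 and Slc39a13 reached 3, and Slc19a1, Slc2a8 and Slc35d2 passed in 0. The sign changed in genes near 0 or with a wide spread. Slc1a3 at 1 ng was 0.043 by DESeq2 and 0.045 by edgeR, and -0.25 to 0.24 with a library left out, including 0.03 without vehicle F8 and 0.06 without vehicle M9. With a library left out at 1 ng, Slc1a2 ran from -0.22 to 0.11 (0.04 without vehicle M9), Slc2a1 from -0.10 to 0.41 and Slc30a1 from -0.030 to 0.40. Slc35d2 at 100 pg ran from -0.040 to 1.35, and Slc35a2 at 10 pg from -0.18 to 0.82 (-0.05 without H2O2 F5). The cause was not tested.

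The replicate block lost the calls of Slc2a9, Slc35d2 and Slc7a8 at 1 ng. Each group has 3 libraries, so a p that misses the threshold does not show equality, and at 10 pg the spread between libraries limits what can be detected.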
